A study of Rattus norvegicus with 20 samples.

Results

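The NMDA receptor subunits were followed in hippocampal RNA of Gunn rat pups as the 7 genes Grin1, Grin2a, Grin2b, Grin2c, Grin2d, Grin3a and Grin3b, chosen by symbol from 32883 genes listed. Each symbol matched 1 row, and 6 of the 7 genes passed the filter on low counts. Grin3b did not pass. The libraries were made from polyA RNA of pups killed on postnatal day 6, 5 per group in 4 groups. Treated jj pups were homozygous and jaundiced and received intermittent LED phototherapy, the light treatment of neonatal jaundice, from day 4 for 12 h in all with 3 h on and 3 h off. Treated Nj pups were heterozygous and not jaundiced (the labels also write Jj) and received the same light. Untreated jj and untreated Nj pups received no light. The Gunn rat lacks the liver enzyme that conjugates bilirubin, and the Nj controls carry the mutant allele too, on 1 chromosome. RNA came from 1 whole hippocampal lobe per pup, so a lower level of a transcript can reflect fewer cells of a type or less RNA per cell, which cannot be told apart here.

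NMDA receptors are glutamate-gated channels that pass calcium and need glycine or D-serine as a co-agonist. Grin1 encodes the obligatory subunit, the Grin2 genes encode the glutamate-binding subunits that set gating and kinetics, and the Grin3 genes encode glycine-binding subunits that lower calcium permeability. In the rodent forebrain Grin2b, Grin2d and Grin3a are known as subunits of early postnatal life, whereas Grin2a and Grin2c are known to increase as the brain matures. Grin2c is best known from cerebellar granule cells and is also expressed by forebrain astrocytes and some interneurons.

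Total counts per library ran from 16882652 to 27112749, and the 6 tested subunits had 209 to 8293 counts each in every library. Markers of hippocampal neurons were present in all groups: the dentate granule cell factor Prox1 averaged 104 ± 12.6 CPM (counts scaled to library size) in treated jj, 112 ± 16.9 in treated Nj, 121 ± 12.3 in untreated jj and 126 ± 6.33 CPM in untreated Nj pups (SD, n = 5 each). Prox1 is 1 of 12 excitatory neuron markers. Their sum ran from 3163 to 3390 CPM in treated jj and 3306 to 3479 in treated Nj pups. It ran from 3071 to 3297 CPM in untreated jj and 2854 to 3304 in untreated Nj pups. Of the 11 tested, 3 rose and 1 fell by light averaged over genotypes (median log2 0.04). Choroid plexus content differed between libraries. Ttr, its most abundant transcript, ran from 3.57 to 9662 CPM and passed 1000 CPM in 3 treated jj, 2 treated Nj, 1 untreated jj and 1 untreated Nj libraries. Sample titles carry a prefix whose meaning is not stated. All treated pups share 1 prefix, untreated jj pups have another and untreated Nj pups have 3 others. Prefix and light therefore cannot be told apart, and neither can prefix and jaundice among untreated pups. The comparison of treated jj with treated Nj pups lies within 1 prefix.

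**Figure D1:**
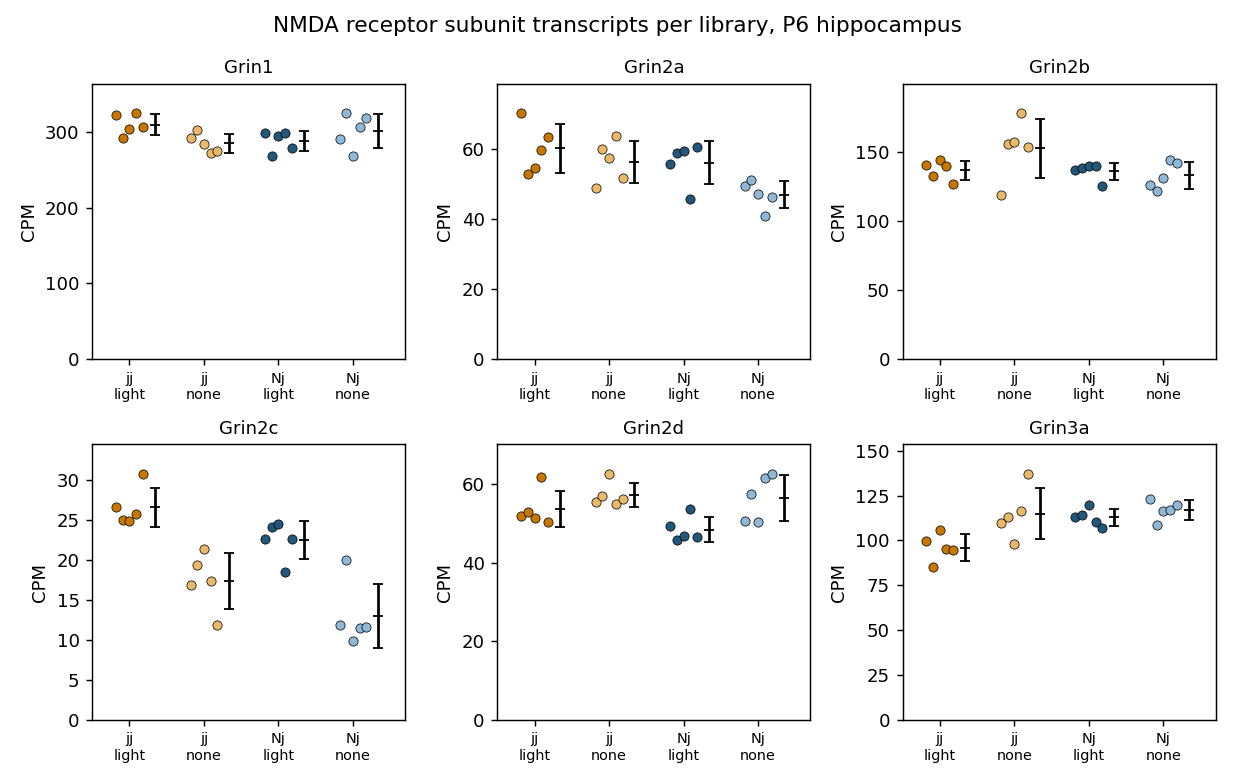
CPM of the 6 tested NMDA receptor subunits (vertical axes, from 0) in each library of the 4 groups, with 1 point per pup and the group mean ± SD to the right of each set (n = 5). Grin2c stands at 18.5 CPM or more in every treated library, and 7 of its 10 untreated libraries lie below that, between 9.85 and 17.3 CPM.

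Phototherapy was set against no treatment in each genotype and as the average of both genotypes. A rise or fall by light below means treated against untreated pups, whose prefixes also differ. Grin2c rose, and it had the largest change of the 6 tested subunits in each of these comparisons. In treated pups of both genotypes together Grin2d and Grin3a fell slightly, and the other 3 subunits did not pass the test. Of the 6, 1 rose and 0 fell by light in Nj pups, where 1.49 percent of all genes tested rose and 2.51 percent fell. The groups of Nj pups overlapped for all 6, and did not for 6.46 percent of all genes. By light averaged over genotypes 1 rose and 2 fell, against 4.35 percent of all genes higher and 5.74 percent lower (10.1 percent in either direction). DESeq2 called 4, adding Grin2a, and in Nj pups it called 2, adding Grin2d. Treated and untreated pups of both genotypes together overlapped for all 6 subunits, and did not for 0.478 percent of all genes. The median log2 fold change averaged over genotypes was -0.02 for the 6 subunits and 0.000891 for all 15272 genes tested.

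By light in jj pups 0 of the 6 passed edgeR's quasi-likelihood test, where 0.164 percent of all genes passed (0.0393 percent higher and 0.124 percent lower). At an unadjusted p under 0.05 there were 4 (Grin1, Grin2b, Grin2c and Grin3a), and DESeq2 called 2, Grin2c and Grin3a. The difference of the light effects between jj and Nj pups was tested as an interaction. It passed for 0 of 6 subunits by edgeR and by DESeq2, with 2 at an unadjusted p under 0.05, and for 0 percent of all genes. A light effect past the threshold in Nj but not in jj pups is therefore not shown to differ between genotypes for any subunit. The light comparisons share their libraries with the averaged one and are not independent of it.

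Grin2c (ENSRNOG00000003280) encodes GluN2C, a subunit of low-conductance receptors with weak magnesium block. Its levels were 26.6, 24.9, 24.9, 25.7 and 30.7 CPM in treated jj pups, against 16.9, 19.4, 21.3, 17.3 and 11.9 CPM in untreated jj pups. In Nj pups they were 22.6, 24.0, 24.5, 18.5 and 22.6 CPM with light, against 11.9, 19.9, 9.85, 11.5 and 11.6 CPM without. The jj groups do not overlap, as in 2.96 percent of all genes. The Nj groups overlap only through untreated Nj 2 at 19.9 CPM, which lies above the lowest treated library, and the other 4 untreated Nj libraries lie below every treated one.

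Grin2c was higher with light in Nj pups by 0.79 on the log2 scale (1.73-fold, SE 0.16, 95% interval 0.45 to 1.13, edgeR adjusted p = 0.0119). In jj pups the log2 fold change was 0.62 (1.53-fold, SE 0.16, interval 0.28 to 0.95, adjusted p = 0.1), which did not pass. Averaged over genotypes it rose by 0.70 (1.63-fold, SE 0.11, interval 0.47 to 0.94, adjusted p = 0.001). The difference of the light effects, jj minus Nj, was -0.17 with an interval from -0.65 to 0.30 (adjusted p = 1). This interval includes 0 and leaves the direction of a difference undecided with 5 pups per group. Grin2c kept its call for light in Nj pups and for light averaged over genotypes in each of the 20 fits that left out 1 library (highest adjusted p 0.0437 and 0.00273). Without untreated Nj 2 the log2 fold change in Nj pups was 1.01 (adjusted p = 0.000157), and light in jj pups then also passed (adjusted p = 0.019, log2 0.63). That library is in neither jj group, and the jj fold change hardly moved. The fit gives all 4 groups a shared estimate of spread, which the left-out library enters. Without the 7 libraries above 1000 CPM of Ttr the averaged log2 fold change was 0.66 and no longer passed (adjusted p = 0.0595), and that in Nj pups was 0.67 (adjusted p = 0.164).

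By mean level of Grin2c the groups ordered as treated jj (26.6 ± 2.44 CPM), treated Nj (22.4 ± 2.37), untreated jj (17.4 ± 3.53) and untreated Nj pups (12.9 ± 3.99 CPM, SD, n = 5 each). The treated jj libraries all lay above the treated Nj ones, a separation shown by 1.2 percent of all genes, but the log2 difference of 0.24 (SE 0.16) did not pass (adjusted p = 0.724). Untreated jj and untreated Nj pups overlapped, with a log2 difference of 0.42 (SE 0.16, adjusted p = 0.775). This value was 0.63 without untreated Nj 2, 0.66 with prefix J15 as the only one among untreated Nj pups, 0.25 without the Ttr-rich libraries and 0.20 with astrocyte markers as a covariate, and it passed in none of these.

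Astrocytes are a known site of Grin2c expression in the forebrain. Of 16 astrocyte markers 4 rose and 2 fell by light averaged over genotypes (median log2 0.05), and their summed level ran from 4205 to 4377 CPM in treated jj, 4145 to 4343 in treated Nj, 3822 to 4500 in untreated jj and 3689 to 4327 CPM in untreated Nj pups, with no marker at 0. Pearson's r between log2 CPM of Grin2c and the mean of these markers was 0.63 over the 20 libraries and 0.66 after group means were removed. For Grin1 these values were 0.38 and 0.60, so the relation is not particular to Grin2c. The markers include Slc1a2, which is also listed below among the genes most like Grin2c. With the mean of these markers as a covariate, the log2 fold change of Grin2c was 0.64 averaged over genotypes (adjusted p = 0.000364), 0.65 in Nj pups (adjusted p = 0.0155) and 0.63 in jj pups (adjusted p = 0.033, now past the threshold). With choroid plexus markers as the covariate it was 0.69 averaged (adjusted p = 0.00191). Cerebellar markers ran from 142 to 162 CPM in treated jj, 130.5 to 143 in treated Nj, 140.5 to 159 in untreated jj and 139 to 181 CPM in untreated Nj pups, summed over 8 genes, and the Purkinje cell gene Pcp2 was at 0 in every Nj library.

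Grin2d (ENSRNOG00000021063) encodes GluN2D, a subunit of slowly closing receptors that in the hippocampus is known mainly from interneurons. It stood at 52.0, 53.0, 51.4, 61.9 and 50.3 CPM in treated jj and 55.5, 57.1, 62.6, 55.0 and 56.4 CPM in untreated jj pups. In Nj pups it stood at 49.4, 45.9, 46.7, 53.8 and 46.7 CPM with light and 50.7, 57.5, 50.4, 61.6 and 62.7 CPM without. Treated and untreated groups overlapped in both genotypes, through treated jj 4 and treated Nj 4.

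Averaged over genotypes Grin2d was lower with light, at a log2 fold change of -0.16 (0.896-fold, SE 0.05, interval -0.26 to -0.06, adjusted p = 0.0384). It was -0.22 in Nj pups (SE 0.07, adjusted p = 0.0652) and -0.09 in jj pups (SE 0.07, adjusted p = 0.592), neither past the threshold. In Nj pups it passed without treated Nj 4, untreated jj 3 or untreated Nj 1 or 3 (adjusted p from 0.0372 to 0.0432). With 1 library left out the averaged effect passed in 6 of 20 fits. It was lost without treated jj 1, 2, 3 or 5, treated Nj 1, 2, 3 or 5, untreated jj 2, 3 or 5, or untreated Nj 2, 4 or 5 (adjusted p from 0.0563 to 0.104 over these). Of 13 interneuron markers tested, 4 rose and 3 fell by light averaged over genotypes (median log2 -0.02). Summed over 14 genes they ran from 1398 to 1622 CPM in treated jj, 1465 to 1587 in treated Nj, 1386 to 1521 in untreated jj and 1391 to 1579 CPM in untreated Nj pups, with no marker at 0. Their part in the Grin2d result was not tested.

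Grin3a (ENSRNOG00000005723) encodes GluN3A, which is known to hold back synapse maturation in the early postnatal rodent brain. Its levels were 99.5, 85.4, 106, 94.98 and 94.5 CPM in treated jj, against 109.8, 113, 98.1, 117 and 137 CPM in untreated jj pups. In Nj pups they were 113, 114, 119.9, 110.4 and 107 CPM with light, against 123, 109, 117, 117 and 120.0 CPM without. In jj pups 3 treated libraries lie below every untreated one, while the Nj groups overlap over most of their range.

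Averaged over genotypes Grin3a was lower with light, at a log2 fold change of -0.16 (0.897-fold, SE 0.05, interval -0.25 to -0.06, adjusted p = 0.0378). In jj pups it was -0.26 (SE 0.07, adjusted p = 0.0947) and in Nj pups -0.05 (SE 0.07, adjusted p = 0.745), with a difference between these effects of -0.21 (SE 0.09, unadjusted p = 0.0404, adjusted p = 1). None of these passed. With 1 library left out the averaged effect passed in 5 of 20 fits, and it was lost without treated jj 1, 2, 4 or 5, treated Nj 1, 2, 4 or 5, untreated jj 2, 4 or 5, or untreated Nj 1, 3, 4 or 5 (adjusted p from 0.0511 to 0.0823 over these). Without untreated jj 3 the light effect in jj pups passed (adjusted p = 0.0275).

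Among treated pups, jj stood below Nj in Grin3a with no overlap, by -0.23 on the log2 scale (SE 0.07), and this did not pass (adjusted p = 0.724). Grin3a followed the choroid plexus content of the libraries inversely. After group means were removed, Pearson's r between its log2 CPM and the mean of the choroid plexus markers was -0.61 over the 20 libraries, which share tissue dissection and scaling. For Grin1 the same r was -0.52. Summed over 12 genes those markers ran from 78.9 to 8337 CPM in treated jj, 33.8 to 4321 in treated Nj, 20.3 to 10401 in untreated jj and 18.9 to 4531 CPM in untreated Nj pups, with Otx2 at 0 in every library outside untreated jj. With these markers as a covariate the averaged log2 fold change of Grin3a was -0.12 and did not pass (adjusted p = 0.0643), nor did it with the astrocyte covariate (-0.13, adjusted p = 0.0739) or with prefix J15 as the only one among untreated Nj pups (-0.16, adjusted p = 0.0556). Without the Ttr-rich libraries it was -0.13 (adjusted p = 0.175), and that of Grin2d was -0.17 (adjusted p = 0.0785). Markers of immature neurons also moved with light: 8 of 11 fell averaged over genotypes (median log2 -0.24). Their summed level ran from 10029 to 11110 CPM in treated jj, 10020.1 to 11511 in treated Nj, 10668 to 12521 in untreated jj and 11923 to 13047 CPM in untreated Nj pups, with no marker at 0. Their part in the Grin3a result was not tested.

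**Figure D2:**
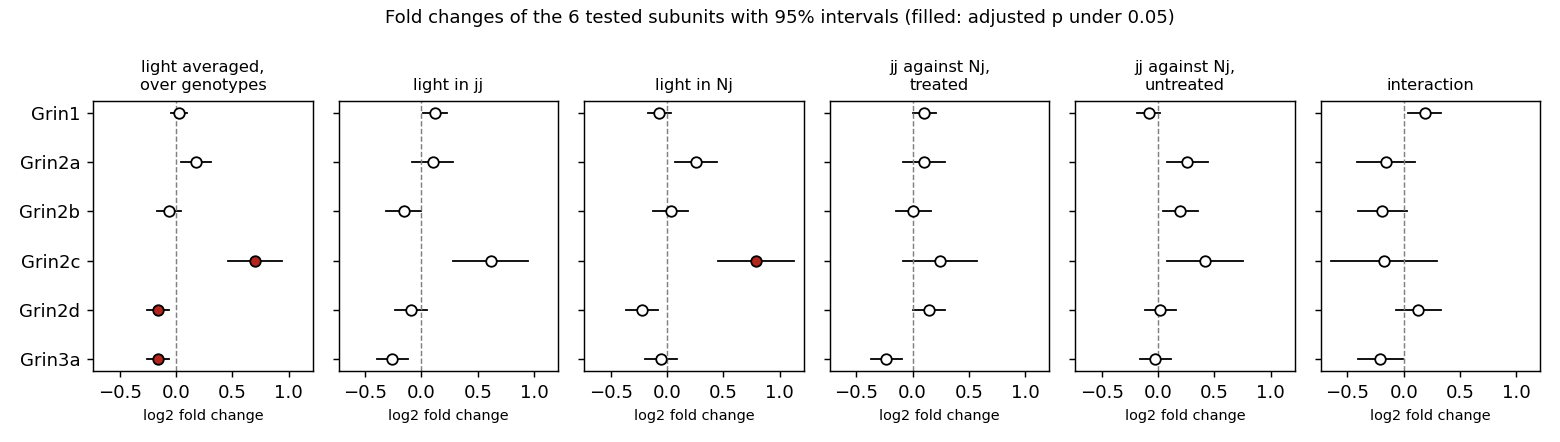
Log2 fold changes (horizontal axes) with 95% intervals for the 6 tested subunits in 6 comparisons, where filled points pass an edgeR adjusted p of 0.05. Grin2c lies at 0.70, 0.62 and 0.79 in the 3 light comparisons, and the averaged values of Grin2d and Grin3a both lie at -0.16.

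Grin1 (ENSRNOG00000011726), the obligatory subunit, averaged 310 ± 13.8 CPM in treated jj against 285 ± 12.7 CPM in untreated jj pups, and 288 ± 13.7 CPM in treated Nj against 302 ± 22.5 CPM in untreated Nj pups (SD, n = 5 each). All groups overlapped. The averaged log2 fold change by light was 0.03 with an interval from -0.05 to 0.10 (adjusted p = 0.692). The light effects differed by 0.19 between jj and Nj pups (SE 0.07, unadjusted p = 0.0143), which did not pass over all genes (adjusted p = 1).

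Grin2a (ENSRNOG00000033942), the subunit of fast mature receptors, ran from 52.8 to 70.3 CPM in treated jj and 48.7 to 63.7 CPM in untreated jj pups. It ran from 45.6 to 60.7 CPM in treated Nj and 40.9 to 51.1 CPM in untreated Nj pups. Its mean was lowest in untreated Nj pups, at 46.9 ± 3.86 CPM, and 4 of 5 treated Nj libraries lie above that group, while treated Nj 4 lies inside it. The log2 fold change was 0.18 averaged over genotypes (SE 0.06, adjusted p = 0.0762), 0.26 in Nj (SE 0.09, adjusted p = 0.111) and 0.10 in jj pups (SE 0.09, adjusted p = 0.68), none past the threshold by edgeR. Averaged over genotypes it passed by DESeq2 (adjusted p = 0.0408) and with prefix J15 as the only one among untreated Nj pups (adjusted p = 0.0479). Without treated Nj 4 it passed in Nj pups (0.32, adjusted p = 0.0358) and averaged (0.21, adjusted p = 0.0196).

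Grin2b (ENSRNOG00000008766), the main glutamate-binding subunit of newborn forebrain, ran from 127 to 144 CPM in treated jj and from 118 to 178 CPM in untreated jj pups. It ran from 125 to 139.7 CPM in treated Nj and 121 to 144 CPM in untreated Nj pups. The untreated jj group was the widest, with an SD of 21.4 CPM around 152 CPM, against 6.9 CPM in treated jj pups, and the groups overlapped in every comparison. The averaged log2 fold change by light was -0.06 with an interval from -0.17 to 0.05 (adjusted p = 0.489).

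Grin3b (ENSRNOG00000012562), the second GluN3 subunit, known mainly from motor neurons, had 0 to 4 counts per library. The counts of the 5 libraries summed to 13 in treated jj, 10 in treated Nj, 6 in untreated jj and 3 in untreated Nj pups, and 7 of 20 libraries had none. No test was made of these counts.

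The 4 subunit genes with an entry in the RefSeq promoter table (build GRCr8, minus strand, 250 bases before to 50 after the listed start) were Grin2c, which rose, Grin2d and Grin3a, which fell, and Grin1, which did not pass. Their windows are shown because the 3 calls averaged over genotypes went in opposite directions. Those of Grin2d and Grin3a held in 6 and 5 of the 20 fits that left out 1 library. Whether the 3 products share receptors was not tested. They are given 5′ to 3′ on the gene's strand, with capitals marking GC boxes (GGGCGG) and cAMP response half-sites (TGACG), searched on both strands.
Grin2c, chr10:101005089-101005388: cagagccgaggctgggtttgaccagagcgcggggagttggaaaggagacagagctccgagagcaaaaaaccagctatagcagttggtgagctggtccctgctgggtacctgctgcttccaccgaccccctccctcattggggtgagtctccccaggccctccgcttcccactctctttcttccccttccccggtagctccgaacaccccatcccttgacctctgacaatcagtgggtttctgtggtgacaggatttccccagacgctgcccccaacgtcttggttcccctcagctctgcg
Grin2d, chr1:105481187-105481486: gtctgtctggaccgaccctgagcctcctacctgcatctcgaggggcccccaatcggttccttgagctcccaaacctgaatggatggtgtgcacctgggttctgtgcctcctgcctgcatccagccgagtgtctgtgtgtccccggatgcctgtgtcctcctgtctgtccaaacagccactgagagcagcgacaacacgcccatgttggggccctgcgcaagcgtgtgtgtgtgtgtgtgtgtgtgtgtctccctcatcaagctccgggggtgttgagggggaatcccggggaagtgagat
Grin3a, chr5:69001509-69001808: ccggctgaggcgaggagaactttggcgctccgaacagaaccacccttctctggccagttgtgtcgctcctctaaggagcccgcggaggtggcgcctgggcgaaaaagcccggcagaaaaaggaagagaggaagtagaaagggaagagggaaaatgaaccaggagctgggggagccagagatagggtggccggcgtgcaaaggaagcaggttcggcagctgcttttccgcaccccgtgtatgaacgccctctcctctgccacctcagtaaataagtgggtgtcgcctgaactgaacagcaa
Grin1, chr3:28528705-28529004: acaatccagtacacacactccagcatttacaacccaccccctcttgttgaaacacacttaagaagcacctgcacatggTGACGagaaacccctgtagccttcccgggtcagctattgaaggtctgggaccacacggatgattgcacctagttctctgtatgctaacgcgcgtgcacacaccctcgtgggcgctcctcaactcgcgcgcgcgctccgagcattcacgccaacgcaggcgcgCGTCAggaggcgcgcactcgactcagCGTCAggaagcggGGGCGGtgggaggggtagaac
The Grin1 window held 1 GC box and 3 half-sites, and the other 3 windows held neither motif. Over all 33469 windows of 300 bases in the table, 33.1 percent held a GC box and 21.2 percent a half-site. Neither the E-box CACGTG (6.42 percent of all windows) nor TATAAA (14.2 percent) was found in any of the 4. GC content was 60.3 percent for Grin2c, 60.7 percent for Grin2d, 58.7 percent for Grin3a and 59.7 percent for Grin1, against a median of 51.7 percent over all windows. A match describes letters only.

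Ratios of read counts within a library need no scaling, and 5 were set between groups in 5 comparisons with an exact 2-sided permutation test over libraries, 25 tests in all. Transcript length does not cancel between genes, so a ratio says nothing of which subunit is more abundant. Grin2c rose relative to Grin2b. Its ratio averaged 0.196 ± 0.027 in treated jj against 0.116 ± 0.0274 in untreated jj pups, and 0.166 ± 0.0192 in treated Nj against 0.0992 ± 0.0371 in untreated Nj pups (SD, n = 5 each). The jj groups do not overlap, and in Nj pups untreated Nj 2 lies at 0.164, inside the treated range. The light effect averaged over genotypes was 0.79 on the log2 scale (1.73-fold, exact permutation p = 9.45e-05, adjusted over the 25 ratio tests 0.00236). It was the 1 ratio test of 25 past an adjusted p of 0.05, and it passed in each of the 20 fits that left out 1 library (highest adjusted p 0.0102). Without the Ttr-rich libraries it was 0.70 and did not pass (adjusted p = 0.238). That setting keeps 2 treated and 4 untreated jj and 3 treated and 4 untreated Nj libraries. So few splits remain that the permutation test could hardly pass there. Within a genotype the difference was 0.78 in jj (exact permutation p = 0.00794, adjusted 0.0567) and 0.80 in Nj pups (exact permutation p = 0.0159, adjusted 0.0567). The exact permutation test of 5 against 5 libraries cannot give a p below 0.00794. Such a test had little room to pass after adjustment over 25 tests, unlike the averaged one, which has more splits.

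The Grin2a to Grin2b ratio, a common measure of receptor maturation in forebrain, averaged 0.442 ± 0.0565 in treated jj against 0.372 ± 0.0281 in untreated jj pups, and 0.415 ± 0.0569 in treated Nj against 0.357 ± 0.0537 in untreated Nj pups (SD, n = 5 each). All pairs of groups overlapped. Averaged over genotypes the ratio was 0.23 higher with light on the log2 scale, which did not pass (exact permutation p = 0.0118, adjusted 0.0567). The log2 differences by light were 0.24 in jj (exact permutation p = 0.0397, adjusted 0.0992) and 0.22 in Nj pups (exact permutation p = 0.143, adjusted 0.238). Without untreated Nj 2, untreated jj 1, treated Nj 4 or treated jj 3 the averaged difference passed (adjusted p from 0.0272 to 0.0496).

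The Grin3a to Grin1 ratio was lower in treated jj pups, at 0.31 ± 0.0231, than in treated Nj pups, at 0.392 ± 0.0225, with no overlap (SD, n = 5 each). This did not pass (log2 -0.34, exact permutation p = 0.00794, the smallest that 5 against 5 allows, adjusted 0.0567). Untreated jj pups stood at 0.404 ± 0.0608 and untreated Nj pups at 0.39 ± 0.0399. Their lowest libraries, at 0.346 and 0.334, lie below the highest treated jj one at 0.349. Grin3a itself averaged 91.6 CPM in the 3 Ttr-rich treated jj libraries and 103 CPM in the other 2. In treated Nj pups it averaged 110.4 CPM in the 2 Ttr-rich libraries and 114.5 CPM in the other 3. In jj pups the mean was lower with light by 0.37 on the log2 scale without passing (exact permutation p = 0.0159, adjusted 0.0567), and in Nj pups the difference was 0.01. The difference of differences was not tested for ratios. The Grin2b to Grin1 ratio was 0.441 ± 0.0233 in treated jj and 0.537 ± 0.0899 in untreated jj pups (log2 -0.27, exact permutation p = 0.0556, adjusted 0.126). The Grin2d to Grin2b ratio was 0.357 ± 0.0237 in treated Nj and 0.426 ± 0.0341 in untreated Nj pups (log2 -0.25, exact permutation p = 0.0159, adjusted 0.0567).

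**Figure D3:**
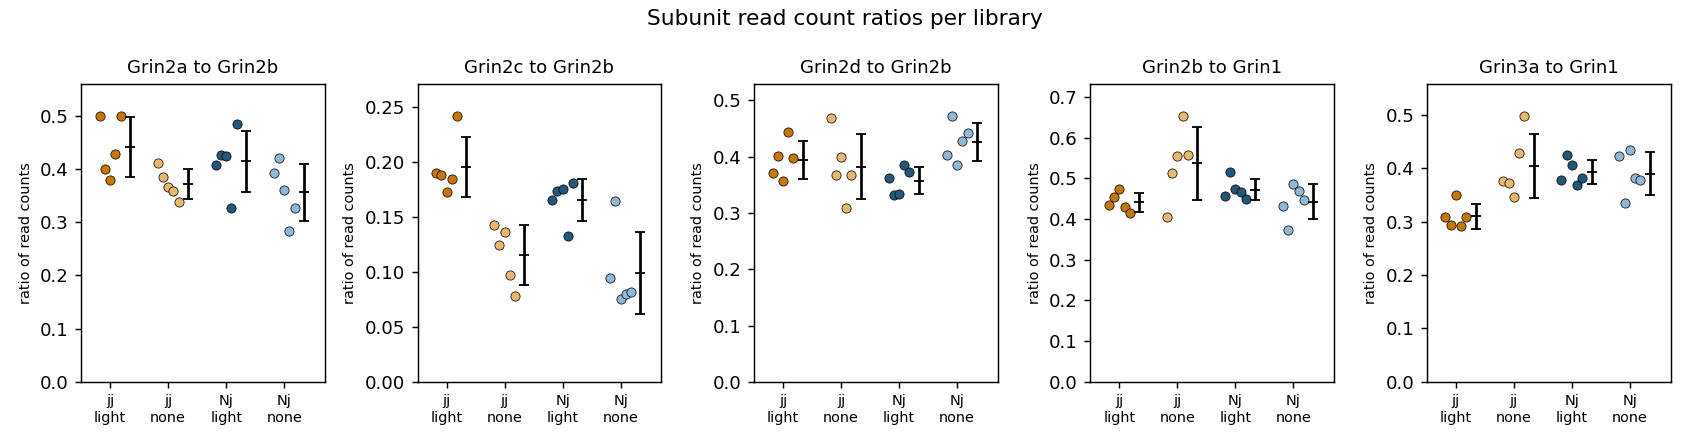
Ratios of read counts within each library for 5 subunit pairs (vertical axes, from 0), with 1 point per pup and the mean ± SD beside each group (n = 5). In the panel of Grin2c to Grin2b the treated jj libraries lie above all untreated jj ones, and in that of Grin3a to Grin1 the treated jj libraries, at 0.293 to 0.349, lie below all treated Nj ones.

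Jaundice was set against its absence with and without light. Without light, jj and Nj pups carry different prefixes, so prefix and jaundice cannot be told apart there. The interaction includes these groups too. In untreated pups 0 of 6 subunits passed by edgeR or DESeq2, as did 0 percent of all genes by edgeR, with 3 at an unadjusted p under 0.05. These were Grin2a (log2 0.26, SE 0.09), Grin2b (0.20, SE 0.07) and Grin2c (0.42, SE 0.16), each higher in jj pups at an adjusted p of 0.775. Grin1 lay at -0.08 (interval -0.18 to 0.02), Grin2d at 0.02 (interval -0.12 to 0.16) and Grin3a at -0.03 (interval -0.16 to 0.11).

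In treated pups 0 of 6 passed by either tool, against 0 percent of all genes by edgeR, with 3 at an unadjusted p under 0.05. These were Grin1 (log2 0.10, SE 0.05), Grin2d (0.15, SE 0.07) and Grin3a (-0.23, SE 0.07), each at an adjusted p of 0.724. Grin2b lay at 0.01 (interval -0.14 to 0.16) and Grin2a at 0.10 (interval -0.08 to 0.29). The groups did not overlap for 2 of 6 subunits, Grin2c and Grin3a, and for 1.2 percent of all genes.

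Partners of the receptor were followed as 95 genes in 6 lists by role, of which 92 were tested. With light 3 of them were higher and 4 lower in Nj pups. Averaged over genotypes 17 were higher and 8 lower, with 67 not passing. The median log2 fold change of the 92 was 0.05 in Nj pups and 0.04 averaged over genotypes. Of all genes tested, 10.1 percent passed averaged over genotypes and 4 percent in Nj pups. Without the Ttr-rich libraries 18 of the 30 partner calls picked for naming were lost. Averaged over genotypes these included Slc17a7, Glul, Slc1a4, Shmt2, Nefl, Baiap2, Nsf, Ephb2, Tiam1, Rasgrf1, Nos1 and Capn2 (adjusted p from 0.057 to 0.214). In Nj pups they were Slc1a2, Slc1a4, Ptk2b and Reln (adjusted p from 0.0747 to 0.136), and in jj pups Reln (adjusted p = 0.51). That setting also has fewer libraries, with 2 treated jj, 3 treated Nj, 4 untreated jj and 4 untreated Nj left. With choroid plexus markers as a covariate, which keeps all 20 libraries, 0 of the 30 calls were lost and 2 were gained. With the astrocyte covariate the averaged calls of Baiap2, Nos1, Rasgrf1 and Tiam1 (adjusted p from 0.0562 to 0.0657) and that of Ptk2b in Nj pups (adjusted p = 0.105) were lost.

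Among 8 genes of glutamate uptake and recycling, 3 rose averaged over genotypes and 0 fell (median log2 0.07). Slc1a2, the main glial glutamate transporter, averaged 146 ± 8.37 CPM in treated jj against 119 ± 8.49 CPM in untreated jj pups, and 139.6 ± 12.2 CPM in treated Nj against 109 ± 9.41 CPM in untreated Nj pups (log2 0.33, SE 0.05, adjusted p = 0.000216). It also rose in Nj pups alone (log2 0.36, adjusted p = 0.00596), and in jj pups it lay at 0.30 (adjusted p = 0.059). Slc17a7, the vesicular transporter of excitatory terminals, and Glul, glutamine synthetase, rose by 0.15 (adjusted p = 0.014) and 0.13 (adjusted p = 0.0206).

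Among 15 tested genes of glycine and D-serine supply and removal, 4 fell averaged over genotypes and 0 rose (median log2 -0.01). Slc38a5, a transporter of glutamine, glycine and serine, averaged 16.2 ± 1.48 CPM in treated jj against 18.3 ± 1.53 CPM in untreated jj pups, and 15.8 ± 1.18 CPM in treated Nj against 21.7 ± 2.45 CPM in untreated Nj pups (log2 -0.32, SE 0.06, adjusted p = 0.00199). Phgdh, the first enzyme of serine synthesis, averaged 123 ± 10.9 CPM in treated jj against 132 ± 6.2 CPM in untreated jj pups, and 110.4 ± 7.85 CPM in treated Nj against 138 ± 11.3 CPM in untreated Nj pups (log2 -0.21, SE 0.04, adjusted p = 0.00442). Slc1a4, a serine exchanger, lay at -0.11 (adjusted p = 0.0137) and Shmt2, the mitochondrial serine hydroxymethyltransferase, at -0.14 (adjusted p = 0.0216), and both fell. The Shmt2 call was lost without untreated Nj 5 or treated jj 5 (highest adjusted p 0.058). In Nj pups Slc38a5 (log2 -0.46, adjusted p = 0.00679), Phgdh (-0.32, adjusted p = 0.00859) and Slc1a4 (-0.14, adjusted p = 0.0341) fell. The Slc1a4 call in Nj pups was lost without treated Nj 2, 4 or 5 or untreated Nj 4 or 5 (highest adjusted p 0.107). Srr, which makes D-serine, and Slc6a9, the glial glycine transporter, did not pass in any comparison.

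Of 22 kinases, phosphatases, anchoring and calmodulin genes, 7 rose averaged over genotypes and 0 fell (median log2 0.09). Akap5, which anchors kinase A and calcineurin behind the postsynaptic membrane, rose by 0.30 (SE 0.05, adjusted p = 0.00114), with means of 50.8 ± 3.78 CPM in treated jj against 42.2 ± 4.56 CPM in untreated jj pups and 54.1 ± 4.41 CPM in treated Nj against 42.7 ± 3.82 CPM in untreated Nj pups. Ptk2b, a calcium-activated tyrosine kinase (0.16, adjusted p = 0.0112), and Ppp3r1, the regulatory subunit of calcineurin (0.24, adjusted p = 0.0148), rose as well. In Nj pups Akap5 (0.34, adjusted p = 0.0156) and Ptk2b (0.20, adjusted p = 0.0453) passed. The Akap5 call in Nj pups was lost without untreated Nj 4 or 5 (highest adjusted p 0.0637), and that of Ptk2b in 10 of 20 fits: without treated jj 2, treated Nj 1, 2, 3 or 5, untreated jj 1 or 4, or untreated Nj 3, 4 or 5 (highest adjusted p 0.131).

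Of 18 scaffold genes, with a median log2 of 0.07, 3 rose averaged over genotypes and 0 fell: Nefl, the light neurofilament chain (0.22, adjusted p = 0.0102), Dlg2, the postsynaptic scaffold PSD-93 (0.15, adjusted p = 0.0171), and Baiap2, an actin regulator of spines (0.15, adjusted p = 0.0357). The Baiap2 call was lost without treated Nj 1 or untreated jj 4 (highest adjusted p 0.0516). In Nj pups 0 of 18 passed, with Dlg2 nearest (log2 0.19, adjusted p = 0.0565).

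Of 18 trafficking and surface partners, 2 rose and 2 fell averaged over genotypes (median log2 -0.01). Reln, the secreted glycoprotein reelin, which acts on NMDA receptors through its own receptors, fell to 505 ± 28.2 CPM in treated jj against 633 ± 43.5 CPM in untreated jj pups, and to 501 ± 25.7 CPM in treated Nj against 658 ± 74.1 CPM in untreated Nj pups (log2 -0.36, SE 0.05, adjusted p = 8.91e-05). It was the 1 partner of 92 that passed in jj pups (log2 -0.33, adjusted p = 0.0418), where 0.164 percent of all genes passed and DESeq2 called 6 partners. This call was lost in 11 of 20 fits, without treated jj 2, 3, 4 or 5, treated Nj 1, 2 or 3, or untreated jj 2, 3, 4 or 5 (highest adjusted p 0.175). Lin7b, an adaptor of receptor transport (0.24, adjusted p = 0.00432), and Nsf, the vesicle fusion ATPase (0.12, adjusted p = 0.0192), rose, and Ephb2, an ephrin receptor that binds the NMDA receptor, fell (-0.17, adjusted p = 0.0275). The Ephb2 call was lost without treated jj 2, treated Nj 5, untreated jj 4 or 5, or untreated Nj 4 or 5 (highest adjusted p 0.0705).

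Of 11 tested downstream genes 2 rose and 2 fell averaged over genotypes (median log2 0.06). Tiam1 (0.17, adjusted p = 0.029) and Rasgrf1 (0.12, adjusted p = 0.0342), exchange factors for Rac and Ras, rose. Nos1, neuronal nitric oxide synthase (-0.13, adjusted p = 0.0295), and Capn2, the calcium-dependent protease calpain 2 (-0.08, adjusted p = 0.0444), fell. The Rasgrf1 call was lost without untreated jj 4 or untreated Nj 4 (highest adjusted p 0.0662), that of Nos1 without treated jj 3 or 5, treated Nj 3 or 5, or untreated Nj 3, 4 or 5 (highest 0.078), and that of Capn2 in 16 of 20 fits, the exceptions being those without treated Nj 2, untreated jj 1 or 5, or untreated Nj 3 (highest 0.116). In Nj pups 0 of 11 passed, with Tiam1 nearest (log2 0.22, adjusted p = 0.0751).

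In jj pups the genes of lowest p in the lists without a call were Capn2 (log2 -0.10), Slc1a2 (0.30), Shmt1 (-0.32), Akap5 (0.27) and Nefl (0.26). Between jj and Nj pups 0 of 92 partners passed by edgeR or DESeq2, without light (6 at an unadjusted p under 0.05) or with it (5). The lowest p within each of the 6 lists without light was that of Nos1 (log2 -0.10), Glul (0.10), Slc38a5 (-0.25), Ptpn5 (0.12), Homer2 (0.10) and Nsf (-0.08). With light the lowest within each list was that of Arc (-0.26), Slc17a6 (-0.18), Shmt1 (-0.30), Csnk2a1 (-0.08), Dlg2 (-0.10) and Lin7a (-0.47). The interaction passed for 0 of 92 by either tool (4 at an unadjusted p under 0.05). Its lowest p within each list was that of Tiam1 (-0.10), Slc17a6 (-0.10), Shmt1 (-0.50), Src (0.07), Actn2 (0.17) and Lin7a (-0.59).

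The genes most like each subunit over the 20 libraries were found among 12156 genes by Pearson's r of log2 CPM, a description over libraries that share treatment groups and scaling. Nearest to Grin2c were Slc1a2 (r = 0.92, and 0.74 after group means were removed), Cnnm1 (0.92 and 0.78) and Itpka, an inositol trisphosphate kinase of dendritic spines (0.92 and 0.68). Nearest to Grin2d were Bcl9l (0.90 and 0.87), Irf2bp1 (0.90 and 0.81) and Atp13a1 (0.89 and 0.82). Nearest to Grin3a were Mmp16, a membrane metalloproteinase (0.89 and 0.82), Nipsnap3b (0.89 and 0.90) and Lrrn3 (0.89 and 0.87).

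Grin1 was most like Eef1a2, a neuronal elongation factor (0.85 and 0.86), Ap2s1 (0.83 and 0.90) and Chga (0.83 and 0.81). Grin2b was most like Stox2 (0.84 and 0.80), Zfp704 (0.81 and 0.78) and Erbb4, the neuregulin receptor (0.81 and 0.73). Grin2a had lower values, with Hapln4 (0.77 and 0.60), Purb (0.77 and 0.54) and Dgat2 (0.76 and 0.56). Without the 2 libraries farthest from each subunit's median all 18 values lay between 0.61 and 0.90. Among the subunits themselves Grin2a and Grin2c varied together (r = 0.74, and 0.52 after group means were removed) and Grin2c and Grin3a inversely (-0.70 and -0.55).

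**Figure D4:**
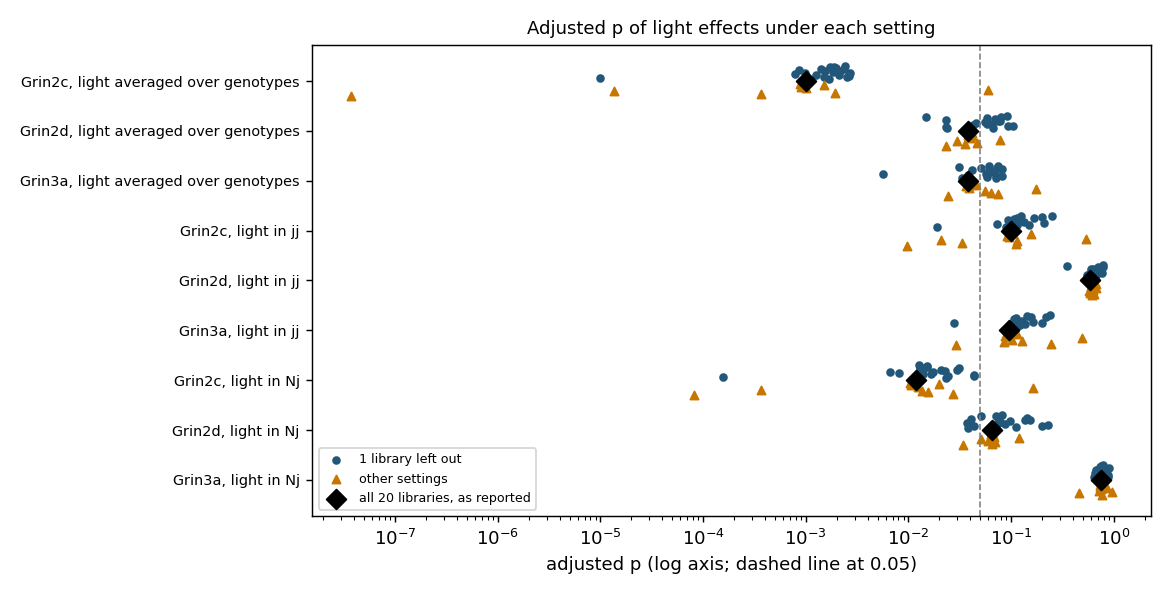
Adjusted p (log axis) of the light effects on Grin2c, Grin2d and Grin3a with all 20 libraries (diamonds), with 1 library left out (circles) and under the other settings (triangles), against the threshold of 0.05 (dashed). The averaged Grin2c value passes in all 20 left-out fits, and those of Grin2d and Grin3a pass in 6 and 5 of them.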

How the data were processed

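The authors deposited raw read counts per rat Ensembl gene for 20 libraries. Per the submitters' processing notes, FastQC, TopHat2 2.0.13, Subread and edgeR were used. The notes name a mouse build, whereas no source used here gives the rat build, the strand setting or the treatment of reads that map to several genes. Reads of overlapping or antisense genes therefore cannot be told apart. No transcript lengths were used, and levels were not compared between subunits.

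Genes were filtered with filterByExpr (15272 of 32883 remained), scaled by TMM and fitted in 1 edgeR 4.0.16 quasi-likelihood model of 4 group means in R 4.3.3 (robust, legacy estimates). Benjamini-Hochberg adjustment ran over all genes tested, with 0.05 as the threshold. SE was the log2 fold change divided by the root of F. CPM used the TMM-scaled totals of the tested genes. Ratios used counts plus 0.5, and their adjustment ran over the 25 ratio tests. DESeq2 1.42.0 was the second tool. The scripts were tested on simulated data. The subunits and lists were chosen with earlier results of these data known. The subunits were always named, as were up to 4 called partners per list and comparison (or the 1 of lowest p) and the 3 genes most like each subunit, among those with an average log2 CPM of 1 or more. A called partner is not reported here. The levels of Srr, Slc6a9, Prox1, Pcp2, Ttr and Otx2 were named outside this rule, after their values were seen. Replicate numbers follow accession order and pair no pups. Pups of a group are separate animals per the series' design, and litters are not given.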

Additional observations from a re-analysis of the deposited data

Results flagged for a closer look

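In 7 of 44 groups of 5 libraries (6 subunits and 5 ratios in 4 groups), 1 library stood far from the other 4, where chance gives about 1 in 20. The highest Grin2c level in untreated Nj pups was 19.9 CPM, in untreated Nj 2, against 11.9 CPM for the next library and 9.85 CPM for the lowest, and the same library had the highest Grin2c to Grin2b ratio of its group, 0.164, against 0.0947 for the next. The highest Grin2c to Grin2b ratio in treated jj pups was 0.242, against 0.19 for the next. Grin2d was highest at 61.9 CPM in treated jj pups, against 53.0 CPM for the next, and at 62.6 CPM in untreated jj pups, against 57.1 CPM for the next. Grin2b was lowest at 125 CPM in treated Nj pups, against 137 CPM for the next. The Grin3a to Grin1 ratio was highest at 0.349 in treated jj pups, against 0.308 for the next.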

How the results depend on the processing

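No paired analysis was possible because the replicate numbers follow accession order and link no pups of different groups. Over 36 subunit results, 1005 of 1068 alternative values kept direction and side of the threshold (36 lost a call, 15 gained one and 12 changed sign). Subunit calls existed only by light in Nj pups (1) and averaged over genotypes (3), so most values had no call to lose. Of the values of named partners, 1511 of 1622 kept both (92 lost a call and 19 gained one). Of 30 partner calls, 3 were lost with no count filter (Capn2 averaged, Ptk2b and Slc1a4 in Nj pups), 2 with only the groups compared (Ptk2b in Nj, Reln in jj pups) and 1 with J15 (Capn2 averaged). DESeq2 lost 0 and added 5: Slc1a2, Akap5 and Nefl in jj and Dlg2 and Tiam1 in Nj pups. Without the Ttr-rich libraries (2 treated jj, 3 treated Nj, 4 untreated jj and 4 untreated Nj remained) 0 subunits were called by light in Nj pups, 0 averaged over genotypes, and 0 ratios passed. With so few splits left, the ratio tests could hardly pass in that setting. DESeq2 called 2 subunits by light in Nj and 2 in jj pups. With title prefix J15 as the only one among untreated Nj pups, 1 subunit was called by light in jj pups and 4 ratios passed. With the astrocyte covariate 1 subunit was called by light in jj pups. Leaving out 1 library gave 1 to 3 called subunits by light in Nj pups, 0 to 1 in jj pups and 1 to 3 averaged, and 1 to 9 ratios. Over all genes, 611 were called by light in Nj pups, against 112 without the Ttr-rich libraries, 1009 by DESeq2 and 152 to 1070 with 1 library left out (152 and 159 without untreated Nj 4 or 5, 272 and 253 without treated Nj 2 or 5, 1070 without untreated jj 3). By light in jj pups 25 were called, against 0 without the Ttr-rich libraries, 72 with J15, 54 and 44 with the choroid plexus and astrocyte covariates, 3 with only the groups compared, 271 by DESeq2 and 0 to 75 with 1 library left out (0 without treated jj 2, 3 or 5 or untreated jj 4, 75 without untreated Nj 2). Averaged over genotypes 1541 were called, against 424 without the Ttr-rich libraries and 1020 without untreated Nj 4. DESeq2 called 1 gene between untreated and 2 between treated jj and Nj pups. The cause was not tested.

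Signs turned for log2 values near 0, none of them called. With J15 these were Grin2b by light in Nj pups (-0.030) and the Grin3a to Grin1 ratio by light in Nj pups (-0.019, and -0.042 to 0.052 with 1 library left out). For untreated jj against Nj pups Grin2d was -0.048 without the Ttr-rich libraries, -0.027 with J15 and -0.0098 with the astrocyte covariate (-0.022 to 0.062 with 1 library left out). There Grin3a was 0.028 without the Ttr-rich libraries and 0.033 with the astrocyte covariate (-0.097 to 0.028 with 1 left out), the Grin2a to Grin2b ratio ran from -0.0088 to 0.13 with 1 left out, and the Grin3a to Grin1 ratio from -0.034 to 0.099. For treated jj against Nj pups Grin2b ran from -0.017 to 0.037 with 1 left out. The Grin2d to Grin2b ratio by light in jj pups was -0.040 without the Ttr-rich libraries (-0.021 to 0.13 with 1 left out).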
